A study of Homo sapiens with 16 samples.

Results

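Cytosolic ribosomal protein genes were followed in HepG2 cells, a human hepatoma line, through histidine depletion and inhibition of the kinase MEK. The members were the genes whose symbol is RPL, RPS, RPLP or RPSP with a number and at most a final A, L or X, measured on an array row that lists 1 symbol. For a gene with several such rows, the brightest on average stood for it. The rule gave 51 genes of 22464 named genes tested, 21 of the small subunit (RPS) and 30 of the large subunit (RPL, RPLP). A further 21 symbols that match the pattern appeared only on rows that list several symbols and are described separately. A few ribosomal protein genes named outside the pattern are also described, and no other gene of the family was analysed here.

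Cells were treated for 1 h with the solvent DMSO or with PD98059, a MEK inhibitor, followed by 8 h in DMEM (complete medium) or in DMEM without histidine, the solvent or inhibitor staying in the medium. The labelling protocol gives the PD98059 dose as 2.5 µM. The groups were thus DMSO in complete medium (DMSO-DMEM), DMSO without histidine (DMSO-His), PD98059 in complete medium (PD-DMEM) and PD98059 without histidine (PD-His). Each held 4 arrays from independent incubations, 16 arrays in all, and every cell was of the same line, with no genetic change. The values are log2 array signals, so a difference of 1 means a doubling of signal. A level of one gene cannot be set against that of another, because their probes differ.

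Ribosomal proteins join ribosomal RNA in the nucleolus to form the small subunit, which decodes the mRNA, and the large subunit, which makes the peptide bonds. Their mRNAs are among the most abundant and stable of a growing cell. Most start with a C followed by pyrimidines, the 5′ terminal oligopyrimidine (TOP) motif, through which mTORC1 and the RNA-binding protein LARP1 control their translation. Amino acid shortage is known to hold back the translation of TOP mRNAs, which an array of total RNA does not measure.

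The starts of 7 members on which the results turn are printed to show which carry the motif. Each is 30 bases, 10 before and 20 from the annotated RefSeq start (GRCh38.p14), and the capitals mark an unbroken pyrimidine run that opens with C at the start itself. They are RPS27L (chr15:63157458-63157487, minus strand), its paralog RPS27 (chr1:153990752-153990781, plus), RPS15 (chr19:1438386-1438415, plus), RPS25 (chr11:119018324-119018353, minus), RPL24 (chr3:101686699-101686728, minus), RPL10A (chr6:35468391-35468420, plus) and RPL37A (chr2:216498834-216498863, plus).
RPS27L: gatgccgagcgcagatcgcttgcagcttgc
RPS27: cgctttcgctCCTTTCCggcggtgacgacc
RPS15: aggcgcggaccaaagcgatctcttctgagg
RPS25: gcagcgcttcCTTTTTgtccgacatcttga
RPL24: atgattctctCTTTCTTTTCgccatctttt
RPL10A: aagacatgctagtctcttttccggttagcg
RPL37A: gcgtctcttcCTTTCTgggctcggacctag

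A start entry was found for 44 of the 51 members, 5 of them with several starts. A C at the start followed by at least 4 pyrimidines (C or T, transcribed strand) was present in 32 of the 44 (72.7%), against 911 of the 15247 tested genes with an entry (5.97%). The 12 members without it were RPL10A, RPL10L, RPL19, RPL27, RPL6, RPL9, RPS15, RPS27L, RPS28, RPS29, RPS4X and RPS7. A run of the same form lay elsewhere in the 30-base window in 7 of these 12, RPL10A and RPS15 among them. RPL10L, RPL6, RPS27L, RPS29 and RPS4X had none in the window. Over all members such a run lay somewhere in the window in 39 of 44 (88.6%), against 45.4% of the tested genes.

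The treatments registered in the arrays through other genes. ASNS, an amino acid response gene, rose by 1.98 ± 0.048 (SE) log2 units on histidine depletion with DMSO (adjusted p = 3.92e-14). DUSP6, a target of MEK-ERK signalling, fell by 1.70 log2 units with PD98059 in complete medium (adjusted p = 2.03e-11). Its mean was 8.56, 9.77, 6.87 and 8.49 in DMSO-DMEM, DMSO-His, PD-DMEM and PD-His. In PD-His it was thus below DMSO-His but near DMSO-DMEM, and how far MEK was inhibited there was not tested. Of 12 hepatocyte markers, 10 were measured, with a mean level of 10.95, 10.85, 11.04 and 10.94 in DMSO-DMEM, DMSO-His, PD-DMEM and PD-His. Of 10 markers of other cell types, 8 were measured, at a mean of 7.04, 7.08, 7.04 and 7.05. That mean covers unlike signals, with PTPRC at 3.92 but CD68 at 9.96 and ACTA2 at 9.97 over all 16 arrays. Single markers shifted more between groups than the means of these lists. On depletion with DMSO 5 hepatocyte markers fell and 1 rose, with a median of -0.14. With PD98059 in complete medium 3 rose, FGB by 0.41, and 1 fell. These were 60% and 40% of the 10 measured, where 33.3% and 14.3% of all named genes were called. Among the other markers ACTA2 rose by 0.30 and 0.27 with PD98059 in complete and depleted medium, while LYVE1 fell by 0.29 and 0.43. The part of these shifts in the results was not tested. PD-His replicate 3 stood apart, its named genes lying 0.111 log2 units (root mean square) from their group means, where the other 15 arrays ranged from 0.0496 to 0.0760. Counts are also given without it.

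Histidine depletion with DMSO left the ribosomal protein transcripts close to their level in complete medium. The mean log2 level over the 51 members was 10.19 ± 0.013 (SD, n = 4) in DMSO-DMEM and 10.16 ± 0.014 in DMSO-His. Of the 51, 1 rose and 9 fell at an adjusted p under 0.05 (limma, Benjamini-Hochberg over all named genes), or 19.6%, where 33.3% of all named genes were called, 14.8% higher and 18.4% lower. All named genes include dim ones, whose mean in every group lay below the median of all array values. Without these, 15745 genes and 49 of the 51 members remained, and 46.2% of those genes were called. The median change was -0.018 among members and 0.026 among all named genes, and the members ranged from -0.39 to 0.12. For 41 members the 95% interval of the change lay within 0.15 log2 units of 0, and 5 member fits passed 1.1-fold. Of the 22464 named genes, 6165 fits passed 1.1-fold. The 4 DMSO-His arrays lay wholly above those of DMSO-DMEM for 4 members and wholly below for 11, against 20.8% and 20.5% of all named genes (41.4% in all). Because the same mass of RNA went onto every array, fewer cells and less RNA per cell cannot be told apart here, and neither can a shift of all ribosomal protein mRNAs shared with most other transcripts.

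**Figure D1:**
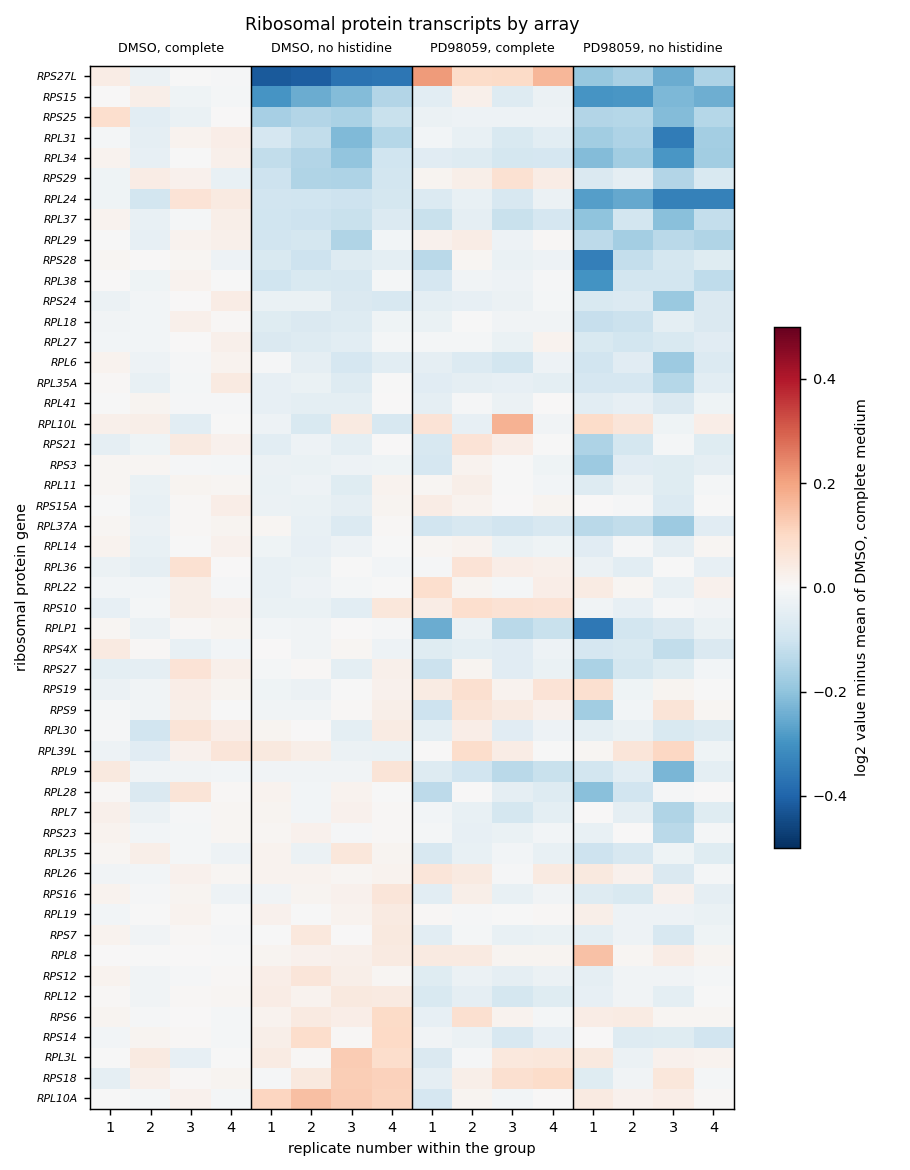
Heat map of the 51 ribosomal protein genes (rows) on the 16 arrays (columns, by group), coloured by log2 signal minus the mean of the 4 DMSO-DMEM arrays. Most cells are pale, and RPS27L stands out, low in both depleted groups and above its DMSO counterpart in both PD98059 groups.

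Among the small subunit genes, 4 of 21 fell and none rose on depletion with DMSO. This was 19.0%, where 33.3% of all named genes were called, 18.4% lower. The first was RPS27L, a paralog of RPS27 that p53 induces in human cells and that binds MDM2. Its signal was 8.31, 8.25, 8.28 and 8.27 on the DMSO-DMEM arrays and 7.86, 7.87, 7.91 and 7.92 on the DMSO-His arrays. The groups did not overlap, and its fall of 0.39 ± 0.031 (SE) log2 units, 1.31-fold, was the largest of any member (adjusted p = 4.44e-08). RPS27 itself, a zinc-finger protein of the small subunit, read 10.37, 10.37, 10.48 and 10.44 in DMSO-DMEM and 10.41, 10.42, 10.37 and 10.44 in DMSO-His. Its arrays overlapped, and its change of -0.0070 had a 95% interval of -0.084 to 0.070 (adjusted p = 0.897). The log2 difference of RPS27L minus RPS27 was thus lower by 0.38 after depletion. An exact two-sided permutation test (n = 4 and 4) gave p = 0.0286, the smallest this design can give. Adjusted over 4 such comparisons it was 0.0381. The pair was chosen with earlier results known, so this test, here and below, adds no separate support to the RPS27L calls.

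RPS15, a protein of the small subunit head near the decoding site, was at 12.66, 12.69, 12.64 and 12.65 in DMSO-DMEM and at 12.37, 12.41, 12.44 and 12.51 in DMSO-His. All depleted arrays were lower, by 0.23 ± 0.032 log2 units on average (adjusted p = 2.4e-05). RPS25, which many viral internal ribosome entry sites need, went from 11.58, 11.44, 11.46 and 11.50 to 11.33, 11.35, 11.34 and 11.38. It fell by 0.15 ± 0.029 (adjusted p = 0.000759), again without overlap. RPS29, one of the genes mutated in Diamond-Blackfan anaemia, went from 10.85, 10.91, 10.89 and 10.84 to 10.77, 10.72, 10.72 and 10.78. The fall was small but complete across arrays (adjusted p = 0.00206).

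Among the large subunit genes, 5 of 30 fell and RPL10A rose. This was 20%, where 33.3% of all named genes were called, 14.8% higher and 18.4% lower. RPL10A, the protein of the mobile L1 stalk through which spent tRNA leaves, was at 11.45, 11.44, 11.47 and 11.44 in DMSO-DMEM and at 11.56, 11.60, 11.58 and 11.56 in DMSO-His. It rose by 0.12 ± 0.024 (adjusted p = 0.000609), and its arrays did not overlap. RPL34 went from 7.92, 7.86, 7.90 and 7.93 to 7.78, 7.76, 7.70 and 7.80, a fall of 0.14 ± 0.030 (adjusted p = 0.00122). RPL31, which lies at the exit of the peptide tunnel, went from 7.93, 7.89, 7.95 and 7.97 to 7.85, 7.81, 7.72 and 7.79 (adjusted p = 0.0108). Both were lower on every depleted array than on any array of complete medium. RPL37, which can bind MDM2, fell by 0.096 (adjusted p = 0.0171). RPL29, which mice can live without, fell by 0.087 (adjusted p = 0.0252). RPL24, which forms a bridge to the small subunit, fell by 0.096 (adjusted p = 0.0302). These last 3 were the calls nearest the threshold. RPL37 lost its call without DMSO-DMEM replicate 4 (adjusted p = 0.0575), RPL29 without DMSO-DMEM replicate 1, 3 or 4 or DMSO-His replicate 1, 2 or 3 (up to 0.0983), and RPL24 without DMSO-DMEM replicate 3 or 4 or any DMSO-His array (up to 0.111).

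**Figure D2:**
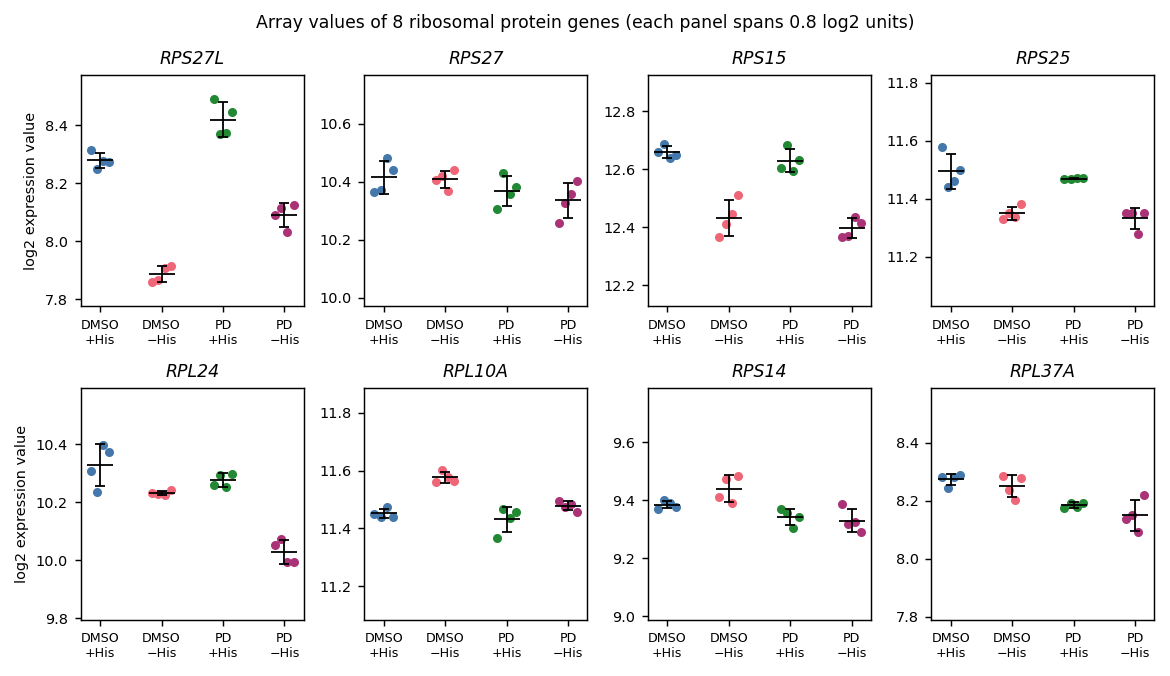
Log2 signal of 8 ribosomal protein genes on each array (points) with the group mean and SD (bars), each panel spanning the same range of log2 units. The DMSO-His and PD-His points of RPS27L, RPS15 and RPS25 lie below those of their complete-medium groups, while the 4 groups of RPS27 overlap.

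Histidine depletion under PD98059 gave falls only among the called members: 12 fell and none rose (23.5%), where 27.4% of all named genes were called, 12.0% higher and 15.3% lower. With dim genes left out, 39.5% of genes were called. The mean level over members was 10.18 ± 0.016 (SD, n = 4) in PD-DMEM and 10.12 ± 0.016 in PD-His. The median change was -0.035 against 0.0032 among all named genes, 44 of 51 fits lay below 0, and 6 passed 1.1-fold. Of the 22464 named genes, 10830 fits lay below 0 and 5051 passed 1.1-fold. Arrays did not overlap for 14 members, all lower after depletion, against 25.1% of all named genes, 10.6% higher and 14.5% lower. Without PD-His replicate 3 the count was 13. The small subunit gave 5 of the falls (23.8% of its members) and the large subunit 7 (23.3%).

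RPS27L again changed most, from 8.49, 8.37, 8.37 and 8.45 in PD-DMEM to 8.09, 8.12, 8.03 and 8.12 in PD-His. The fall of 0.33 ± 0.031 was 1.26-fold (adjusted p = 5.27e-07). RPS27 read 10.31, 10.43, 10.36 and 10.38, then 10.26, 10.33, 10.36 and 10.40, with no call (adjusted p = 0.635). The difference RPS27L minus RPS27 was lower by 0.30 (exact two-sided permutation test, n = 4 and 4, p = 0.0286; adjusted 0.0381). RPL24 came next: 10.26, 10.29, 10.25 and 10.30 in PD-DMEM became 10.05, 10.07, 9.99 and 9.99 in PD-His. This was a fall of 0.25 ± 0.032, 1.19-fold (adjusted p = 1.68e-05), and the groups were far apart relative to the spread of their arrays.

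RPS15 went from 12.61, 12.68, 12.59 and 12.63 to 12.37, 12.37, 12.44 and 12.41 (-0.23, adjusted p = 2.51e-05). RPS25 stood at 11.47 on all 4 PD-DMEM arrays and at 11.35, 11.35, 11.28 and 11.35 in PD-His (-0.14, adjusted p = 0.00165). Both small subunit genes moved about as they had with DMSO. RPL29 went from 10.21, 10.22, 10.16 and 10.19 to 10.06, 10.02, 10.05 and 10.04 (-0.16, adjusted p = 0.000434). RPL34 went from 7.84, 7.83, 7.81 and 7.82 to 7.68, 7.73, 7.61 and 7.72 (-0.14, adjusted p = 0.00154). RPL31 went from 7.92, 7.90, 7.86 and 7.88 to 7.76, 7.78, 7.59 and 7.77 (-0.17, adjusted p = 0.00458). None of these groups overlapped, and RPS29 fell too (adjusted p = 0.00248).

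The last 4 falls were small. RPS10, which is ubiquitinated on stalled ribosomes, fell by 0.086 (adjusted p = 0.0231). RPL38, needed in mouse embryos for translation of Hox mRNAs, fell by 0.12 (adjusted p = 0.0344). RPL27 and RPL18, both rarely mutated in Diamond-Blackfan anaemia, each fell by 0.067 (adjusted p = 0.0327 and 0.0344). Each of these 4 calls was lost without PD-DMEM replicate 2 or 4 and, depending on the gene, without PD-DMEM replicate 1 or 3 or PD-His replicate 1, 2 or 4, with adjusted p up to 0.104. All 4 were also lost with only the groups compared, with every row tested and with a further quantile normalization, which gave 8 falls and 1 rise in place of 12 and 0. The count of falls was 8 without PD-DMEM replicate 2 or 4.

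The 8 members that fell under both agents were RPL24, RPL29, RPL31, RPL34, RPS15, RPS25, RPS27L and RPS29. They were 88.9% of the 9 that fell with DMSO and 66.7% of the 12 that fell with PD98059. Among all named genes the shared falls were 67.0% of those with DMSO and 80.5% of those with PD98059. The comparisons share no array, but they share the estimate of the spread and a set of probes. The 9th gene, RPL37, had -0.067 under PD98059 (adjusted p = 0.107), and RPL10A had 0.046 (adjusted p = 0.201).

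**Figure D3:**
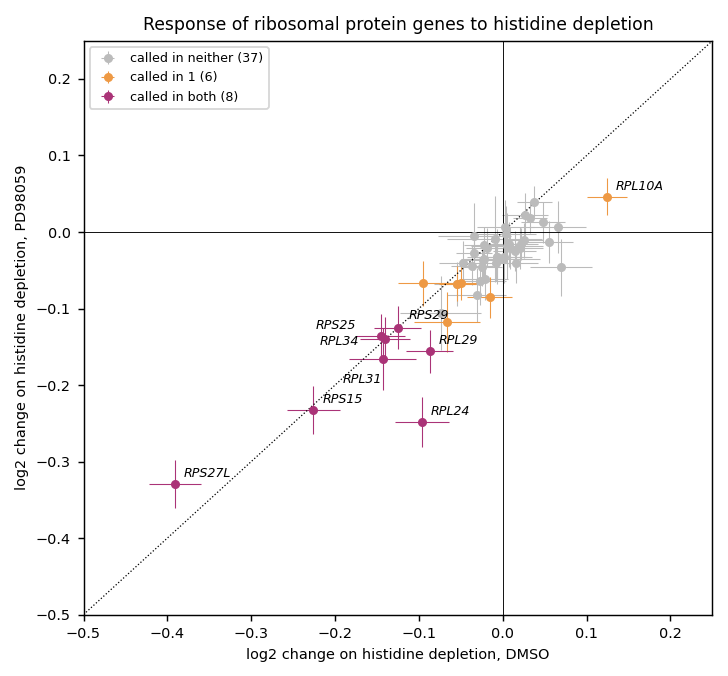
Log2 change on histidine depletion with DMSO (horizontal) and with PD98059 (vertical) for the 51 members, with SE bars, marked by whether the gene was called in neither (37), in 1 (6) or in both (8). Most points lie within 0.1 of 0 on both axes, RPS27L lies alone at the lower left, and RPL24 lies below the diagonal.

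PD98059 in complete medium changed few members. RPS27L rose, and RPL12 and RPL37A fell: 3 of 51 (5.88%), where 14.3% of all named genes were called, 7.59% higher and 6.74% lower. With dim genes left out, 21.8% of genes were called. The median change was -0.022 against 0.014 among all named genes, and the 95% interval lay within 0.15 log2 units of 0 for 47 members. Arrays did not overlap for 3 members higher and 9 lower, against 12.2% and 9.66% of all named genes (21.8% in all). RPS27L was at 8.25 to 8.31 in DMSO-DMEM and at 8.37 to 8.49 in PD-DMEM, a rise of 0.14 ± 0.031 (adjusted p = 0.00485). It was the only member past 1.1-fold, where 2774 of the 22464 named genes passed. The difference RPS27L minus RPS27 was higher by 0.19 (exact two-sided permutation test, n = 4 and 4, p = 0.0571, also 0.0571 adjusted), which did not pass.

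RPL12, at the base of the stalk that recruits translation factors, was at 10.82, 10.79, 10.82 and 10.82 in DMSO-DMEM and at 10.74, 10.77, 10.73 and 10.75 in PD-DMEM. RPL37A was at 8.28, 8.24, 8.28 and 8.29 and then at 8.18, 8.19, 8.18 and 8.19. Neither gene's groups overlapped, and the falls were 0.067 ± 0.020 (adjusted p = 0.0385) and 0.089 ± 0.028 (adjusted p = 0.0422). The RPL12 call was lost without replicate 1, 3 or 4 of DMSO-DMEM, DMSO-His or PD-DMEM (adjusted p up to 0.116), and the RPL37A call without DMSO-DMEM replicate 1, 3 or 4, DMSO-His replicate 2 or 4 or any PD-DMEM array (up to 0.111). Leaving out single arrays gave 1 to 6 calls in all: 1 without replicate 1, 3 or 4 of DMSO-DMEM or of PD-DMEM or without DMSO-His replicate 4, 5 without PD-His replicate 1 and 6 without PD-His replicate 3.

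PD98059 in histidine-free medium lowered 9 members and raised RPS27L, 10 of 51 (19.6%), where 24.4% of all named genes were called, 13.5% higher and 10.9% lower. With dim genes left out, 34.8% of genes were called. The median change was -0.054 against -0.0064 among all named genes, and 43 of 51 fits lay below 0. Of the 22464 named genes, 12037 fits lay below 0. Arrays did not overlap for 1 member higher and 10 lower, against 12.5% and 10.9% of all named genes (23.3% in all). RPS27L rose from 7.86 to 7.92 in DMSO-His to 8.03 to 8.12 in PD-His, by 0.20 ± 0.031 or 1.15-fold (adjusted p = 0.000106). RPS27 did not pass, at -0.072 (adjusted p = 0.187), and the difference between the paralogs was higher by 0.28 (exact two-sided permutation test, n = 4 and 4, p = 0.0286; adjusted 0.0381). RPS27L was thus the only member called in all 4 comparisons, lower without histidine under either agent and higher with PD98059 in either medium.

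RPL24 had the largest fall with PD98059 in this medium, from 10.23, 10.23, 10.23 and 10.24 in DMSO-His to 10.05, 10.07, 9.99 and 9.99 in PD-His (-0.21 ± 0.032, adjusted p = 0.000138). RPL10A went from 11.56, 11.60, 11.58 and 11.56 to 11.50, 11.47, 11.48 and 11.46 (-0.098, adjusted p = 0.00577). RPL10A in PD-His was thus between its levels in DMSO-DMEM and DMSO-His. RPS14, the small subunit gene lost in 5q- syndrome, went from 9.41, 9.47, 9.39 and 9.49 to 9.39, 9.32, 9.33 and 9.29 (-0.11 ± 0.028, adjusted p = 0.00642). RPL37A fell by 0.10 (adjusted p = 0.0115) and RPL12 by 0.065 (adjusted p = 0.0284), the same genes as in complete medium. These comparisons share no array, and the shared falls were 100% of 2 and 22.2% of 9, where all named genes gave 71.7% and 44.1%.

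The remaining falls were RPS4X, the X-linked copy of a small subunit gene (-0.080, adjusted p = 0.0168), RPL35, at the tunnel exit (-0.081, adjusted p = 0.0301), RPS7, a Diamond-Blackfan anaemia gene (-0.069, adjusted p = 0.0341), and RPL9 (-0.11, adjusted p = 0.0408). RPS4X was not called without DMSO-His replicate 3 (adjusted p = 0.0531), RPS7 without DMSO-His replicate 2 or 4 or PD-His replicate 1 (up to 0.106), RPL12 without DMSO-His replicate 1, 3 or 4 or PD-His replicate 1 (up to 0.0753), RPL35 without DMSO-His replicate 1, 3 or 4 or PD-His replicate 1, 2 or 4 (up to 0.106), and RPL9 without DMSO-DMEM replicate 3 or 4, any DMSO-His array, PD-DMEM replicate 2 or 4 or PD-His replicate 1 or 3 (up to 0.135). The count was 6 without DMSO-His replicate 4 and 11 without PD-His replicate 3.

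Whether depletion acted differently under the inhibitor was tested by the interaction, the change on depletion with PD98059 minus that with DMSO. No member was called with limma, against 5.74% of all named genes (2.91% higher and 2.83% lower), and 3 had an unadjusted p under 0.05. RPL24 had the largest difference, -0.15 ± 0.046 (adjusted p = 0.0665), with a 95% interval of -0.25 to -0.055. It was followed by RPS18, on its brightest row, at -0.12 (adjusted p = 0.265) and RPL10A at -0.078 (adjusted p = 0.244). The dimmest row of RPS18 had the opposite sign, at 0.13 (adjusted p = 0.325 with every row tested). Its remaining rows, identical to each other, were negative and not called. No direction is therefore given for the RPS18 difference. The falls of RPL24 with and without PD98059 were therefore not shown to differ at this threshold, although RPL24 was called without DMSO-DMEM replicate 3 and under 4 other settings given in the closing section. The 95% interval lay within 0.2 log2 units of 0 for 49 of 51 members.

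Several members with known special roles showed no call in any of the 4 comparisons. RPS6, the substrate of the S6 kinases, was at 9.52, 9.50, 9.51 and 9.50 in DMSO-DMEM, 9.53, 9.56, 9.54 and 9.60 in DMSO-His, 9.47, 9.59, 9.53 and 9.50 in PD-DMEM and 9.55, 9.55, 9.52 and 9.52 in PD-His. The DMSO-His arrays were all above DMSO-DMEM, by 0.048 on average, which did not pass (adjusted p = 0.185). RPL11, which with the 5S rRNA can bind MDM2, changed by -0.024 with DMSO (adjusted p = 0.455) and by -0.046 with PD98059 (adjusted p = 0.187) on depletion. RPS19, the gene most often mutated in Diamond-Blackfan anaemia, changed by -0.0068 and -0.033 (adjusted p = 0.864 and 0.460). RPLP1, an acidic stalk protein, was steady with DMSO at 10.76, 10.72, 10.76 and 10.76 against 10.74, 10.73, 10.75 and 10.74 without histidine. Its arrays spread more with PD98059, at 10.50, 10.72, 10.62 and 10.64 in complete and 10.39, 10.66, 10.68 and 10.72 in depleted medium, and its change with the inhibitor of -0.13 in each medium had adjusted p = 0.165 and 0.121.

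Of the other 3 paralogs with restricted expression, RPL3L, known from muscle, and RPL10L and RPL39L, known from testis, none was called in any comparison. RPL10L and RPL39L were the 2 members whose mean lay below the median of all array values. RPS18, often used as a reference gene, had 7 rows, 5 of them identical. The kept row changed by 0.070 on depletion with DMSO (adjusted p = 0.170) and the identical rows by 0.030, whereas the dimmest row fell by 0.14 (adjusted p = 0.0128 with every row tested). With PD98059 in complete medium the dimmest row fell by 0.17 (adjusted p = 0.0128 with every row tested), while the kept row changed by 0.039. The RPS18 rows thus disagreed in sign, and no direction is given for this gene.

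The genes of the family that the rule did not take gave larger values in a few cases. On the 22 rows that list a ribosomal protein with other symbols, 20 of them with a small nucleolar RNA, 3 fell on depletion with DMSO, 6 on depletion with PD98059, 1 with PD98059 in complete medium and 7 in depleted medium, and none rose. In the same fit 19.3%, 13.8%, 5.41% and 11.9% of all rows of the table were called. Of those 70459 rows, 45136 are not in the annotation table used. Named genes, in their own fit, were called at 33.3%, 27.4%, 14.3% and 24.4%. The interaction was called for none of the 22, for 1.45% of all rows and for 5.74% of named genes. The row of RPS26, a Diamond-Blackfan anaemia gene of the mRNA exit site, lists a further locus. It read 11.05, 10.99, 11.04 and 11.01 in DMSO-DMEM, 10.57, 10.66, 10.55 and 10.70 in DMSO-His, 10.72, 10.97, 10.86 and 10.94 in PD-DMEM and 10.26, 10.60, 10.59 and 10.64 in PD-His. It fell by 0.41 ± 0.074 with DMSO (adjusted p = 0.000771) and by 0.35 with PD98059 (adjusted p = 0.00343), a size near that of RPS27L, but signal from the listed loci cannot be told apart.

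Of 7 ribosomal proteins and paralogs with names outside the pattern, 5 were measured. RPL22L1, a paralog of RPL22, was at 7.33, 7.23, 7.35 and 7.31 in DMSO-DMEM and at 7.57, 7.46, 7.55 and 7.59 in DMSO-His, a rise of 0.24 ± 0.037 (adjusted p = 6.79e-05). RPL7L1, whose protein acts in ribosome assembly, rose by 0.19 (adjusted p = 2.92e-05). With PD98059 in complete medium both fell, by 0.17 and 0.15 (adjusted p = 0.00408 and 0.00142). RPL36AL, a paralog of RPL36A, went the other way on depletion: 9.34, 9.33, 9.41 and 9.39 in DMSO-DMEM became 9.14, 9.12, 9.09 and 9.13 in DMSO-His, a fall of 0.25 ± 0.029 (adjusted p = 2.94e-06), and under PD98059 it fell by 0.34 (adjusted p = 1.68e-07).

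Members with and without the TOP motif at the annotated start had similar medians, given here as a description with no test. On depletion with DMSO the median change was -0.020 over the 32 members with it and -0.040 over the 12 without. The first set had 5 falls, and the second had 3 falls and 1 rise. Of all named genes, 18.4% were called lower and 14.8% higher there. Under PD98059 the medians were -0.038 and -0.041, with 8 and 4 falls, where 15.3% of all named genes were called lower. PD98059 in complete medium gave -0.023 and -0.025, and in depleted medium -0.055 and -0.045. RPS27L and RPL10A, the largest fall and the only rise on depletion with DMSO, were both in the set without the motif at the start. Other TOP mRNAs, mostly of translation factors but also of other proteins such as VIM, were described too. Of 14 measured, 3 rose and none fell on depletion with DMSO (21.4%, where 33.3% of all named genes were called, 14.8% higher). They were EEF2, EEF1D and VIM, up by 0.14, 0.079 and 0.082 (adjusted p = 6.28e-05, 0.0441 and 0.0439). On depletion with PD98059 1 fell (7.14%), where 27.4% of all named genes were called. None was called with the inhibitor in complete or depleted medium, against 14.3% and 24.4% of all named genes.

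Genes that build ribosomes were called more often than not in the same arrays. Of 20 nucleolar ribosome biogenesis genes measured, 13 rose and 1 fell on depletion with DMSO (70%), where 33.3% of all named genes were called. On depletion with PD98059, 11 rose and 1 fell (60%, against 27.4%). The inhibitor lowered 16 in complete medium (80%, against 14.3%). In depleted medium it lowered 17 (85%, against 24.4%), with no rise in either medium. Their median changes were 0.13, 0.13, -0.19 and -0.18 in these 4 comparisons, where the members had -0.018, -0.035, -0.022 and -0.054. DDX21, a nucleolar RNA helicase, rose by 0.55 ± 0.034 with DMSO (adjusted p = 2.39e-09) and fell by 0.38 with PD98059 in complete medium (adjusted p = 1.05e-06). RRP12, which acts in pre-ribosome export, rose by 0.47 (adjusted p = 1.03e-09) and fell by 0.25 (adjusted p = 6.54e-06).

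Chaperones and importins of ribosomal proteins mostly rose on depletion, where called, and mostly fell with PD98059. Of 16 measured, 7 rose and 2 fell on depletion with DMSO, and 9 rose and 1 fell with PD98059. The inhibitor itself lowered 7 in each medium, raising 1 in depleted medium. In this order the called shares were 56.25%, 62.5%, 43.75% and 50%, against 33.3%, 27.4%, 14.3% and 24.4% of all named genes. RPF2, which brings the 5S particle to the large subunit, rose by 0.47 (adjusted p = 2.8e-07). LTV1, a small subunit assembly factor, rose by 0.33 (adjusted p = 8e-06). PDCD2L, a relative of a small subunit protein chaperone, rose by 0.41 (adjusted p = 7.4e-09). All 3 fell with PD98059 in complete medium, by 0.31, 0.30 and 0.22 (adjusted p = 0.000105, 6.66e-05 and 4.06e-05).

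Regulators of TOP mRNA translation changed individually. Of 19 measured, 8 rose and 3 fell on depletion with DMSO (57.9%, where 33.3% of all named genes were called). With PD98059, 6 rose and 3 fell on depletion (47.4%, against 27.4%). CNBP, which binds TOP mRNAs, rose by 0.29 (adjusted p = 1.64e-08). EIF4EBP2, an inhibitor of cap-dependent initiation, fell by 0.25 (adjusted p = 2.11e-07), whereas its relative EIF4EBP1, named after its value was seen, rose by 0.44 (adjusted p = 5.06e-06). RPS6KA1, a kinase downstream of ERK, fell by 0.44 (adjusted p = 6.92e-08) and EEF2K, which phosphorylates elongation factor 2, by 0.39 (adjusted p = 1.09e-07). Of 74 mitochondrial ribosomal proteins, which serve a separate ribosome, 35 fell and 7 rose on depletion with DMSO, with a median change of -0.074. Under PD98059 23 fell and 6 rose, with a median of -0.057. The called shares of these 74 were 56.8% and 39.2%, against 33.3% and 27.4% of all named genes.

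**Figure D4:**
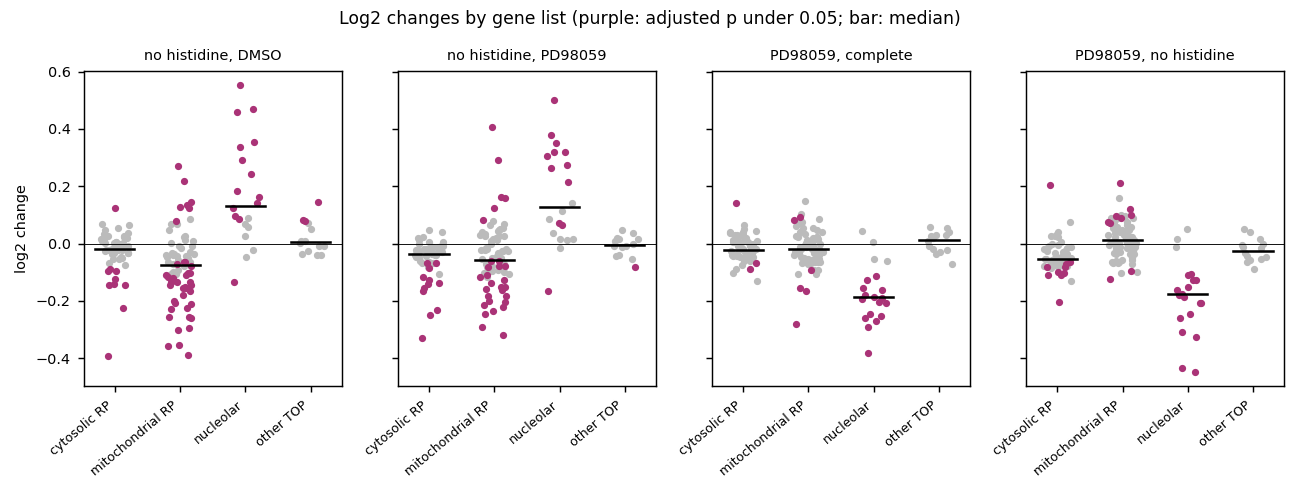
Log2 changes of single genes (points) in 4 lists, cytosolic ribosomal proteins, mitochondrial ribosomal proteins, nucleolar ribosome biogenesis genes and other TOP mRNAs, for the 4 comparisons, with called genes in purple and the median as a bar. The nucleolar genes lie mostly above 0 on depletion and below 0 with PD98059, while the cytosolic ribosomal proteins stay near 0 throughout.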

How the data were processed

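Total RNA (100 ng) from each incubation was amplified and 5.5 µg of cDNA was labelled for the array, per the labels' protocols. The authors deposited log2 values, made with RMA in Partek 6.6 with the hg19 build, per the submitters' processing notes. The table holds 70459 rows, of which 23780 have 1 symbol, 1543 have several and 45136 are not in the annotation table used. RMA had already brought the array medians to between 6.20 and 6.28. Each of 22464 symbols was represented by its row of highest mean.

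From these values a mean per group was fitted over all 16 arrays with limma's lmFit, contrasts.fit and eBayes (limma 3.58.1, R 4.3.3), with Benjamini-Hochberg adjustment over all named genes and a call at an adjusted p under 0.05. No filter on dim rows was set. Rows with several symbols were tested in a fit of every row. The p-values measure the spread between incubations, and precision depends on there being 4 arrays in a group. The code was tested on simulated data. The paralog difference was tested by exact permutation with scipy 1.17.1. Starts and sequences come from RefSeq (GRCh38.p14), matched by symbol.

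The members and lists were chosen with earlier results of these data known. The text names called members with the lowest p, at most 8 in a direction, those just beside the threshold, a set of members with known roles, and from each list up to 4 genes with the lowest p. Alternatives were array weights, an intensity trend, other scalings, fewer groups, a dim-row filter, every row, a stricter threshold, a replicate block and leaving out each array.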

Additional observations from a re-analysis of the deposited data

Results flagged for a closer look

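Of 204 sets of 4 arrays (51 members in 4 groups), 15 (7.35%) held 1 array far from the other 3, where chance gives about 5%. In DMSO-DMEM, replicate 2 was lowest for RPL11 (10.5493), RPL12 (10.7949), RPL37A (8.24345) and RPLP1 (10.7228), and replicate 1 was highest for RPL9 (8.99104). In DMSO-His, replicate 3 was lowest for RPL26 (11.5826), and replicate 4 was highest for RPL41 (11.8677) and RPL9 (9.00613). In PD-His, replicate 3 was lowest for RPL31 (7.58553), RPS15A (11.4441), RPS24 (9.01816) and RPS25 (11.2779). In the same group replicate 1 was lowest for RPL38 (9.69402) and RPS3 (10.9656) and highest for RPL19 (13.4863). PD-DMEM held none. PD-His replicate 3 was also the array with the largest deviation over all named genes.

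No member was called in the interaction test, which does not show that their responses were alike. Among the lists, 2 of 20 ribosome biogenesis genes, 1 of 16 chaperones and importins and 1 of 19 TOP regulators were called. So were 2 of 74 mitochondrial ribosomal proteins. These shares were 10%, 6.25%, 5.26% and 2.70%, where 5.74% of all named genes were called. The interaction was 0.25 for EEF2K (adjusted p = 0.00421), 0.19 for HEATR3, an importer of ribosomal proteins (adjusted p = 0.0254), 0.18 for POLR1B, a subunit of RNA polymerase I (adjusted p = 0.0483), and -0.20 for RRP12 (adjusted p = 0.00576). EEF2, the elongation factor with a TOP mRNA, was higher with PD98059 on every array in complete medium and lower on every array in depleted medium. Its interaction was -0.11 (adjusted p = 0.0536), which did not pass, and the opposite responses themselves were not tested further.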

How the results depend on the processing

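No called direction of the members reversed under any of the 26 alternatives. Of 35 single calls named, 17 held under all of them. With DMSO, 10 depletion calls became 6 at an adjusted p under 0.01, and 7 to 12 when single arrays were left out; with PD98059, 12 became 8 with only the groups compared, with every row tested and at an adjusted p under 0.01, 9 (1 higher) with a further quantile normalization, 15 with array weights, and 8 to 13 without single arrays. PD98059 in complete medium gave 3 calls, 9 with array weights, and 1 (the rise of RPS27L) with arrays shifted to the same median, with every row tested and at an adjusted p under 0.01; single arrays left out gave 1 to 6. PD98059 in depleted medium gave 10 calls, 3 with only the groups compared, 6 with arrays shifted to the same median, 5 with every row tested and 4 at an adjusted p under 0.01; single arrays left out gave 6 to 11. A further quantile normalization ended the fall of RPL10A there (adjusted p = 0.147). The interaction gave 0 calls, 1 (RPL24) with an intensity trend and robust variance, with dim genes left out and with a further quantile normalization, 3 with array weights, and 0 to 1 without single arrays. Over all named genes, array weights raised calls with PD98059 in complete medium from 3218 to 5920 and for the interaction from 1289 to 4615, while equal medians lowered the latter to 782; the causes were not tested. At an adjusted p under 0.01 these counts were 2018 and 592. Depletion with PD98059 gave 6148 calls over all named genes, 7337 with array weights, 4746 with only the groups compared and 4678 at that threshold.

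Replicate numbers did not pair the arrays across all groups, but batches shared by some groups were not tested. Deviations of same-numbered arrays correlated at -0.32 to 0.51, with 9 of 24 pairs over 0.1. Differently numbered arrays of different groups correlated at -0.61 to 0.43. With the replicate number as a block, 11, 13, 4 and 11 members were called in the 4 comparisons and 0 for the interaction. With that block 35.8%, 28.7%, 15.6% and 25.8% of all named genes were called, and 6.64% for the interaction.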
